A study of Mus musculus with 3 samples.

Results

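The 42 genes described here mark or build the blood vessels of the brain. They comprise markers of endothelial cells, parts of the blood-brain barrier, markers of pericytes and vascular smooth muscle, and factors that drive or restrain vessel growth. They were listed by name and role, with no threshold on a measured value, though with earlier results of these data known, and were found on the arrays through the RefSeq accession of each probe. All 42 had a probe, 55 of the 41174 gene probes in all. A probe was tested where its spot was called reliable on at least 2 of the 3 arrays, which left 44 probes for 37 of the 42 genes, out of 27530 tested probes and 12721 tested named genes. Angpt1, Tie1, Erg, Pecam1 and Des had no tested probe; Pecam1, a defining marker of endothelium, was not reliable on any array.

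RNA came from the cortex of mice aged 16 weeks. One genotype was Gtf2i(+/Δex2), heterozygous for an allele named for the loss of exon 2 of Gtf2i, and the other was wild type; both were on the same mixed background, mostly C57BL/6J with a small 129Sv/CD1 share. Gtf2i encodes TFII-I, a transcription factor that binds initiator and E-box sequences. RNA was pooled from 3 to 5 animals of a genotype, and each of the 3 arrays carried a mutant and a wild-type pool in different colours, the mutant in Cy3 on arrays 1 and 3 and in Cy5 on array 2. Nothing in the labels tells if a new pool was made for each array. The p-values therefore reflect only how far the 3 arrays scatter, which may be technical variation alone. Values below are log2 ratios, mutant over wild type, unless an intensity is named; the mutant as numerator is likely and not stated outright in the deposited files. Errors are SD over n = 3 arrays, and the adjusted p is that of limma with Benjamini-Hochberg adjustment over all tested probes, with a threshold of 0.05.

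Brain vessels are lined by endothelial cells sealed with tight junctions and equipped with transporters, which together form the blood-brain barrier. Pericytes and smooth muscle cells, the mural cells, wrap this lining. Growth is driven by VEGF-A acting on the receptors encoded by Kdr and Flt1 and is matured by angiopoietin acting on the receptor encoded by Tek. The vasohibins Vash1 and Vash2 are related enzymes that remove the last tyrosine of alpha-tubulin; Vash1 is known as an inhibitor of vessel growth made by endothelium, and Vash2 as a promoter of it. Kdr has been reported as a target of TFII-I. In whole cortex, a change in the number of vessel cells, in RNA per vessel cell and in RNA of other cells cannot be told apart.

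Both vasohibins changed by more than 1.5-fold, in opposite directions, so the sequence upstream of each is shown. The sequences are from RefSeq on build GRCm38.p6, 5′ to 3′ on the gene's own strand, restricted to bases outside the annotated extent of the gene. An E-box, CANNTG, would be in capitals; it was searched on both strands, which read alike for this motif. The Vash1 stretch is chr12:86678450-86678699 on the plus strand, and the Vash2 stretch is chr1:190979369-190979546 on the minus strand. The Vash1 stretch covers bases 250 to 1 before its start. That of Vash2 covers bases 250 to 73 before the more upstream of its 2 listed starts, and the other start was not searched.
Vash1: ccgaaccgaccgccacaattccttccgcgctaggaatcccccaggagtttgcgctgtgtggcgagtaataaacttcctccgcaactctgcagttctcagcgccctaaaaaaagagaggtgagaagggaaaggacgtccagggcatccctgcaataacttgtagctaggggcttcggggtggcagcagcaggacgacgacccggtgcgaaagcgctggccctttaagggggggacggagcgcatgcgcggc
Vash2: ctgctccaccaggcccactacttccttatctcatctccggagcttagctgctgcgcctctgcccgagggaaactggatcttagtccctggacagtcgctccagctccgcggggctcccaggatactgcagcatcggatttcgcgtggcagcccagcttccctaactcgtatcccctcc
Neither stretch held an E-box. An E-box lay in 66.2% of all 32851 RefSeq upstream windows over the 250 bases used for Vash1 and in 55.1% over the 178 bases used for Vash2. The table held 39 windows for 29 of the 42 genes, and 27 of the 39 held an E-box over 250 bases. The absence of these letters says nothing on binding of the factor.

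Across the arrays, 64.4% to 69.7% of gene spots were called reliable. The median intensity of negative control spots was 72.3 to 81.4, against 204 to 206 for gene spots. Gtf2i itself was lower on both of its tested probes, at 72.0% and 80.4% of wild type (log2 -0.48 ± 0.04 and -0.32 ± 0.05). The position of these probes relative to the deleted exon is not known here, and a probe outside it does not check the labels. Of the markers of the labelled tissue, 8 of the 9 for neurons had a probe and all 8 were tested; all 7 for cortical layers had a probe and 6 were tested. Of all 27530 tested probes, 33.9% passed the threshold. The marker lists for other cells gave, as lower and higher of those tested, 5 and 1 of 8 for neurons, 4 and 0 of 6 for cortical layers, 4 and 1 of 7 for astrocytes, 3 and 1 of 7 for oligodendrocytes, 5 and 1 of 6 for microglia, and 3 and 0 of 4 for blood cells. For fibroblasts and meninges they gave 0 and 1 of 7, for choroid plexus 0 and 2 of 4, and for perivascular macrophages 0 and 0 of 3. The part of these differences in the vessel values was not tested.

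Of the 37 tested vessel genes, 14 passed the threshold, each gene being counted by its probe of smallest p. The 5 higher were Vash2, Rgs5, Pdgfrb, Tjp1 and Cnn1; the 9 lower were Sox17, Tagln, Vash1, Ly6a, Acta2, Vtn, Pltp, Eng and Egfl7. This was 13.5% higher and 24.3% lower, against 17.1% higher and 23.6% lower among all 12721 named genes. Either way it was 37.8%, against 40.7%. The share of vessel genes that passed was therefore close to the share of all genes. Without array 1 the counts were 3 higher and 4 lower, and without array 2 they were 3 and 8. Eng, Egfl7, Ly6a, Vtn, Cnn1, Pltp and Tjp1 lost their calls without array 1 (adjusted p from 0.078 to 0.195), and Vtn, Cnn1, Pltp and Tjp1 also without array 2 (0.0575 to 0.111). With arrays 1 and 2 averaged as 1 sample the counts were 3 higher and 5 lower, and with array weights 9 and 16. The calls over all 27530 tested probes moved alike, from 9333 in the main fit to 2409 without array 1. They were 5120 with arrays 1 and 2 averaged and 18617 with array weights, a fit whose member values lay near those of array 1. The authors' own rule, a B statistic above 0, took 6 of the 37, against 12.3% of named genes. The median log2 ratio was -0.03 over the vessel genes and -0.02 over all named genes. Changes were small: 4 of the 14 reached 1.5-fold, and only Vash2 reached 2-fold.

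**Figure D1:**
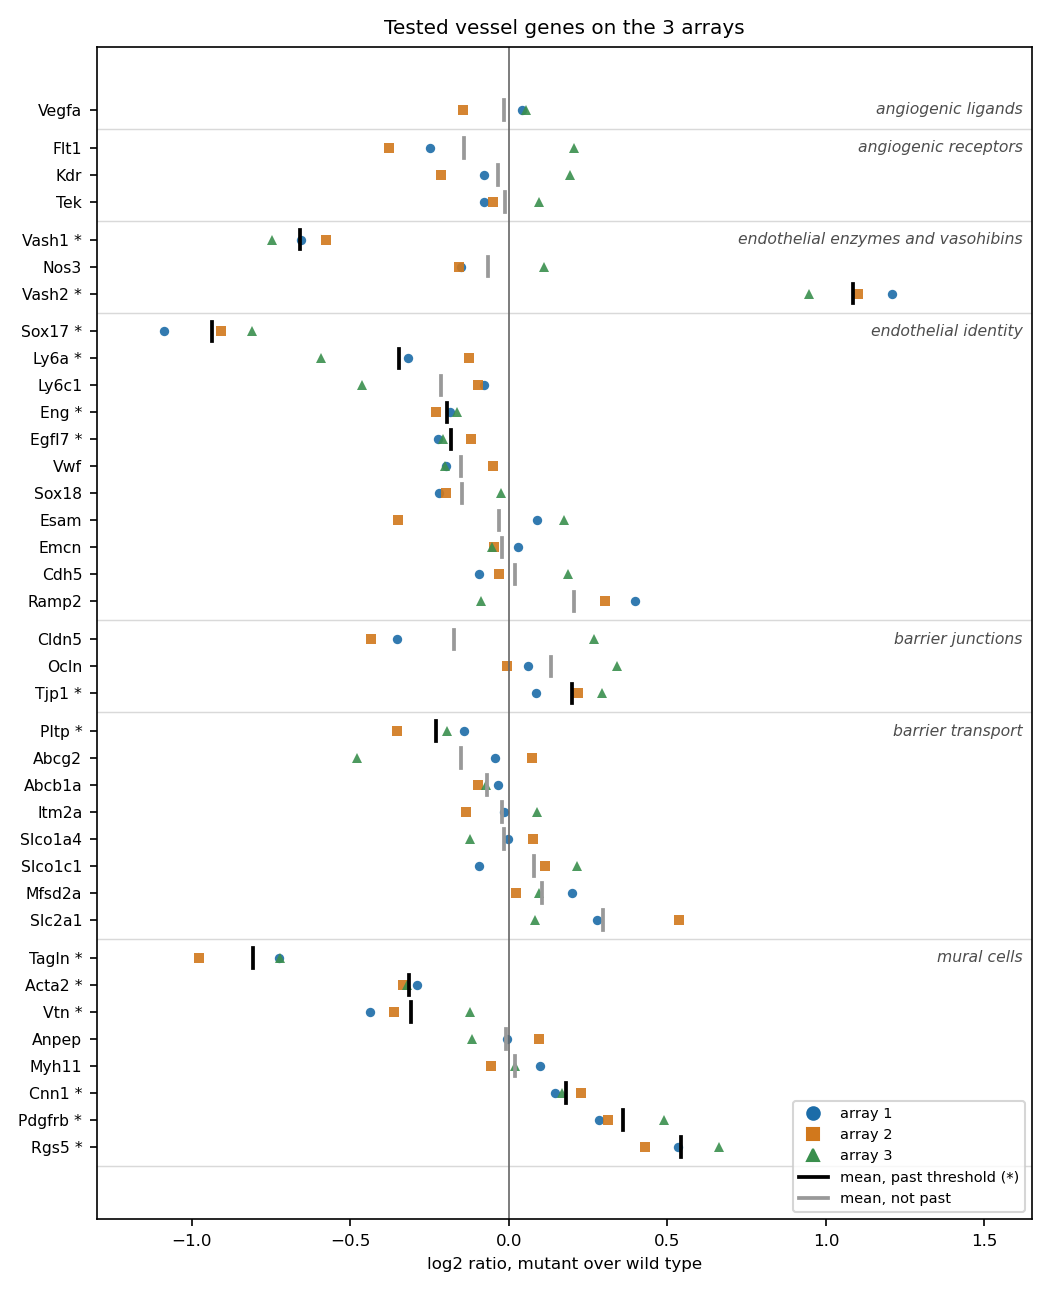
Log2 ratio of mutant over wild type (x axis) for the 37 tested vessel genes (y axis, by role), each gene by its probe of smallest p. Circles, squares and triangles are arrays 1, 2 and 3, and the vertical bar is their mean, black with a star where the gene passed the threshold (14 genes). Vash2, at 1.09, stands highest and Sox17, at -0.94, lowest.

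Among angiogenic ligands and receptors, no tested gene passed. Vegfa, the main growth factor of vessels, had 3 probes. Probe A_51_P482552 read 0.04, -0.15 and 0.06 on arrays 1, 2 and 3 (mean -0.02), A_52_P249424 read -0.03, -0.25 and 0.22 (mean -0.02), and A_52_P638895 read -0.14, 0.02 and 0.12 (mean 0.00). None kept its sign on all arrays. Kdr, the principal receptor of VEGF-A, gave wild-type intensities of 467, 478 and 366 and mutant intensities of 442, 412 and 417 on arrays 1, 2 and 3. The mutant value was the lower on arrays 1 and 2 and the higher on array 3, so its ratio had no steady sign (-0.08, -0.22 and 0.19, mean -0.04 ± 0.21, adjusted p = 0.764). Flt1, the other VEGF receptor, read -0.14 ± 0.31 on one probe and 0.03 ± 0.39 on the other. Tek, the angiopoietin receptor, was at -0.01 ± 0.09. Its signal was dim, at 135 to 147 in wild type and 137 to 145 in mutant, below the deposited limit of 150 for absent. The smallest adjusted p among these genes was 0.375, for Flt1. Untested, Tie1, a partner of Tek, had a mean of -0.08, and Angpt1, the ligand of Tek, had means of 0.37 and -0.04 on its 2 probes; the first was reliable only on array 3, where it read 0.93. A p that misses the threshold does not show that the genotypes are alike.

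Both vasohibins passed, in opposite directions. Vash1 had wild-type intensities of 2241, 2469 and 2523 and mutant intensities of 1424, 1656 and 1503. The genotypes did not overlap, and the ratio was -0.65, -0.58 and -0.75 (mean -0.66 ± 0.09, 63.3% of wild type, adjusted p = 0.00225). Vash2 had wild-type intensities of 167, 181 and 155 and mutant intensities of 387, 388 and 298. Every mutant value lay above every wild-type value, with ratios of 1.21, 1.10 and 0.95 (mean 1.09 ± 0.13, 212% of wild type, adjusted p = 0.00197). The wild-type Vash2 signal was dim, between the deposited limits of 150 for absent and 200 for present. With the median of the negative controls subtracted from each channel, the mean Vash2 ratio was 1.61. A second Vash2 probe was not reliable on any array, at 0.13, -0.13 and 0.07, with a mean of 0.02 and no test. Nos3, the endothelial nitric oxide synthase, was at -0.07 ± 0.15 and dim, with wild-type intensities of 143 to 156.

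**Figure D2:**
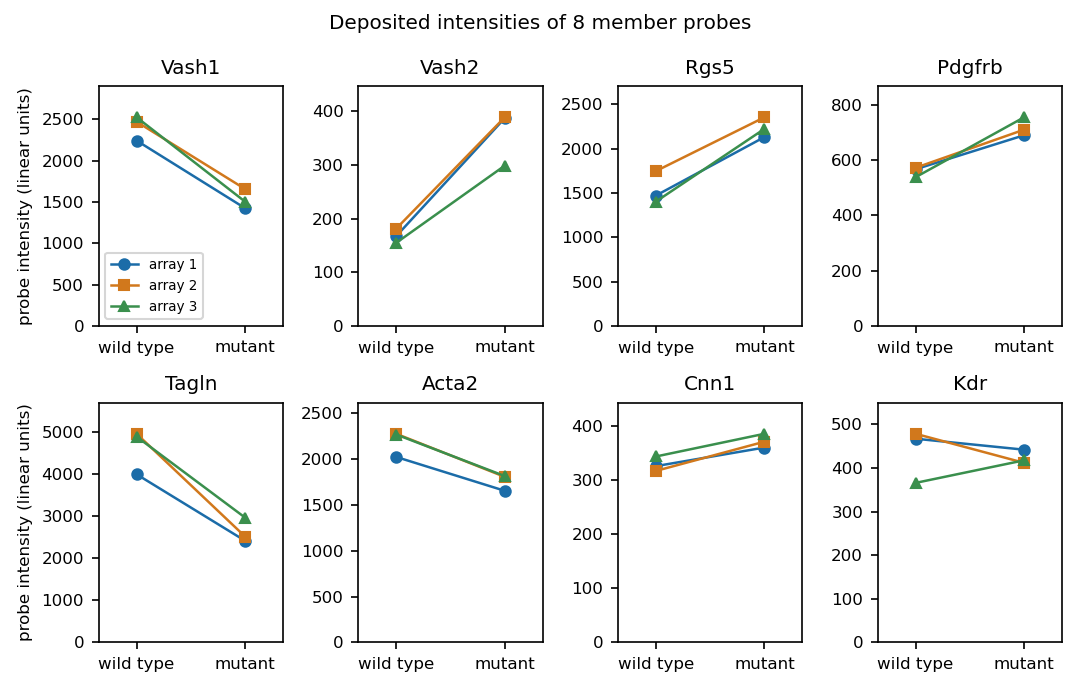
Deposited probe intensity (y axis, linear units from 0) in wild type and mutant for 8 vessel genes; each line joins the 2 channels of an array. The lines for Vash1, Tagln and Acta2 fall on every array, those for Vash2, Rgs5, Pdgfrb and Cnn1 rise on every array, and those for Kdr run in both directions.

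Of the 8 tested mural cell genes, 3 were higher and 3 lower (37.5% each), against 17.1% and 23.6% of all named genes. Without array 1, and also without array 2, Cnn1 and Vtn lost their calls. Rgs5, a regulator of G-protein signalling used as a pericyte marker, had wild-type intensities of 1470, 1746 and 1402 and mutant intensities of 2129, 2352 and 2221. Its ratio was 0.53, 0.43 and 0.66 (mean 0.54 ± 0.12, adjusted p = 0.00347), with no overlap of genotypes. Pdgfrb, the PDGF-BB receptor of pericytes, was at 0.28, 0.31 and 0.49 (mean 0.36 ± 0.11, adjusted p = 0.00747). Cnn1, a smooth muscle calponin, was at 0.14, 0.23 and 0.17 (mean 0.18 ± 0.04, adjusted p = 0.0219). Tagln, Acta2 and Vtn were lower. Tagln, which encodes the smooth muscle protein transgelin, had wild-type intensities of 3989, 4951 and 4883 and mutant intensities of 2413, 2513 and 2963, with ratios of -0.73, -0.98 and -0.72 (mean -0.81 ± 0.15, 57.1% of wild type, adjusted p = 0.00253). The genotypes did not overlap. A dim second Tagln probe, untested, read -0.02, -0.04 and 0.01. Acta2, smooth muscle actin, was at -0.29, -0.33 and -0.32 (mean -0.32 ± 0.02, adjusted p = 0.00444) on its brighter probe. A dimmer Acta2 probe read 0.22, 0.04 and 0.19 (mean 0.15 ± 0.10, adjusted p = 0.067), and the mean of both probes, -0.08, no longer passed (adjusted p = 0.171). Vtn, vitronectin, made by pericytes, was at -0.44, -0.36 and -0.12 (mean -0.31 ± 0.16, adjusted p = 0.023). Myh11, smooth muscle myosin, and Anpep, a pericyte aminopeptidase, were at 0.02 ± 0.08 and -0.01 ± 0.10. Genes linked to pericytes thus lay on both sides, Rgs5 and Pdgfrb higher and Vtn lower, and so did genes of smooth muscle, Cnn1 higher and Tagln lower. Des, which encodes desmin, was not reliable on any array (mean -0.01).

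Of the 11 tested endothelial identity genes, Eng, Egfl7 and Ly6a were lower, each losing its call without array 1, and Sox17 passed in both directions on different probes. Counted by the probe of smallest p this is 4 lower (36.4%) and 0 higher, against 23.6% and 17.1% of all named genes. Sox17, a transcription factor of arterial endothelium, had 2 probes past the threshold that disagreed. Probe A_51_P273667 gave wild-type intensities of 2406, 2208 and 2288 and mutant intensities of 1130, 1176 and 1304, with ratios of -1.09, -0.91 and -0.81 (mean -0.94 ± 0.14, adjusted p = 0.00214). Probe A_52_P279368 gave ratios of 0.57, 0.40 and 0.30 (mean 0.42 ± 0.14, adjusted p = 0.00714), with wild-type intensities of 392, 464 and 376 and mutant intensities of 583, 611 and 461. The remaining probe, untested, read -0.03, 0.04 and -0.14. No direction for Sox17 can be given from these probes; the mean of its tested probes was -0.26 (adjusted p = 0.00622). Eng, the TGF-beta co-receptor endoglin, was at -0.19, -0.23 and -0.16 (mean -0.19 ± 0.03, adjusted p = 0.0161), and Egfl7, a secreted endothelial factor, at -0.22, -0.12 and -0.21 (mean -0.18 ± 0.06, adjusted p = 0.0236). The Eng signal was dim, at 165 to 184 in wild type and 145 to 165 in mutant. Ly6a, a surface protein of brain endothelium, was at -0.32, -0.13 and -0.59 (mean -0.35 ± 0.24, adjusted p = 0.0364), and at -0.22 without array 3. Of the rest, Ly6c1 was at -0.21, Vwf at -0.15, Sox18 at -0.15, Esam at -0.03, Emcn at -0.02, Cdh5 at 0.02 and Ramp2 at 0.20, none past the threshold. Ly6a and Ly6c1 belong to a family of closely related genes, and cross-hybridisation between them was not tested. Erg, an endothelial transcription factor, and Pecam1 were untested, with means of -0.03 and -0.13.

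At the barrier, Tjp1, the scaffold ZO-1 of tight junctions, was higher on one probe at 0.08, 0.22 and 0.29 (mean 0.20 ± 0.11, adjusted p = 0.0368), while its other probe was at -0.08, -0.12 and -0.04 (mean -0.08 ± 0.04, adjusted p = 0.167). That call was lost when any single array was left out. Cldn5, the main claudin of brain endothelium, was at -0.35, -0.43 and 0.27 (mean -0.17 ± 0.39), and Ocln, occludin, at 0.13 ± 0.19. Neither passed, and Ocln was dim, with wild-type intensities of 121 to 130. Of the 8 genes listed under barrier transport, not all of them transporters, only Pltp, a phospholipid transfer protein, passed, at -0.14, -0.35 and -0.20 (mean -0.23 ± 0.11, adjusted p = 0.0258). Its signal was dim, at 166 to 188 in wild type and 143 to 164 in mutant. Slc2a1, the glucose transporter GLUT1, was at 0.28, 0.54 and 0.08 and just missed the threshold (mean 0.30 ± 0.23, adjusted p = 0.0512). Mfsd2a, the lipid transporter of barrier endothelium, was at 0.11, Slco1c1 at 0.08, Slco1a4 at -0.02, Itm2a at -0.02, Abcb1a, the efflux pump P-glycoprotein, at -0.07, and Abcg2 at -0.15 and 0.06 on its 2 probes.

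All 6 members with more than 1 tested probe had probes of opposite sign. Over all named genes with more than 1 tested probe, 1375 of 3270 (42%) did. For Abcg2, Flt1 and Vegfa no probe passed, and the Vegfa probes lay between -0.02 and 0.00. Sox17 was the only vessel gene with called probes in both directions, as were 198 of the 750 named genes with at least 2 called probes (26.4%). Of the 14 called vessel genes, 11 rested on a single tested probe.

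**Figure D3:**
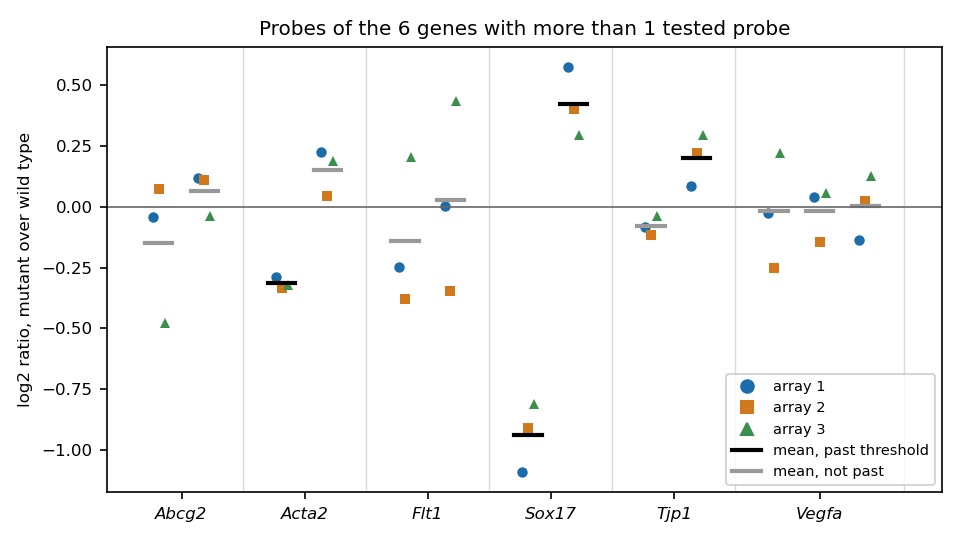
Log2 ratio of mutant over wild type (y axis) for each tested probe of the 6 vessel genes with more than 1 (x axis, probes side by side). Points are the arrays and bars their mean, black where the probe passed. The bars of Sox17 lie at -0.94 and 0.42.

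Array 3 differed from arrays 1 and 2 for part of these genes. Flt1, Kdr and Tek averaged -0.14, -0.22 and 0.16 on arrays 1, 2 and 3, and the junction genes Cldn5, Ocln and Tjp1 averaged -0.07, -0.07 and 0.30. Of these, Tek and Ocln were dim. Against the mean of arrays 1 and 2, the array 3 ratio was higher by more than 0.3 for Cldn5, Flt1, Kdr, Ocln and Esam. It was lower by more than 0.3 for Abcg2, Ramp2, Ly6c1, Ly6a and Slc2a1. In all, 19 of 37 vessel genes (51.4%) had their highest ratio on array 3, against 37.8% of all named genes. Without array 3, Flt1 (-0.31), Cldn5 (-0.39), Sox18 (-0.21), Slc2a1 (0.41) and Ramp2 (0.35) passed the threshold. On array 3 the blood cell markers averaged -0.12, against -0.39 and -0.41 on arrays 1 and 2. By the probe of smallest p, all 7 fibroblast and meningeal markers had their lowest ratio on array 3. Other tested probes of Col1a1 (0.09, -0.03 and 0.37 on arrays 1, 2 and 3) and Col3a1 (-0.06, -0.03 and 0.03) were highest there. That of Pdgfra (0.03, 0.05 and -0.10) was lowest there. Other lists shifted too: neuron markers averaged -0.32, -0.30 and -0.12 on arrays 1, 2 and 3, and oligodendrocyte markers -0.22, -0.29 and -0.11. Cortical layer markers, at -0.29, -0.29 and -0.32, and astrocyte markers, at -0.31, -0.28 and -0.28, did not rise in this way. The part of these markers in the array 3 values was not tested. Over the 37 genes, arrays 1 and 2 correlated at r = 0.922, arrays 1 and 3 at 0.787 and arrays 2 and 3 at 0.698; genes are not independent replicates.

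**Figure D4:**
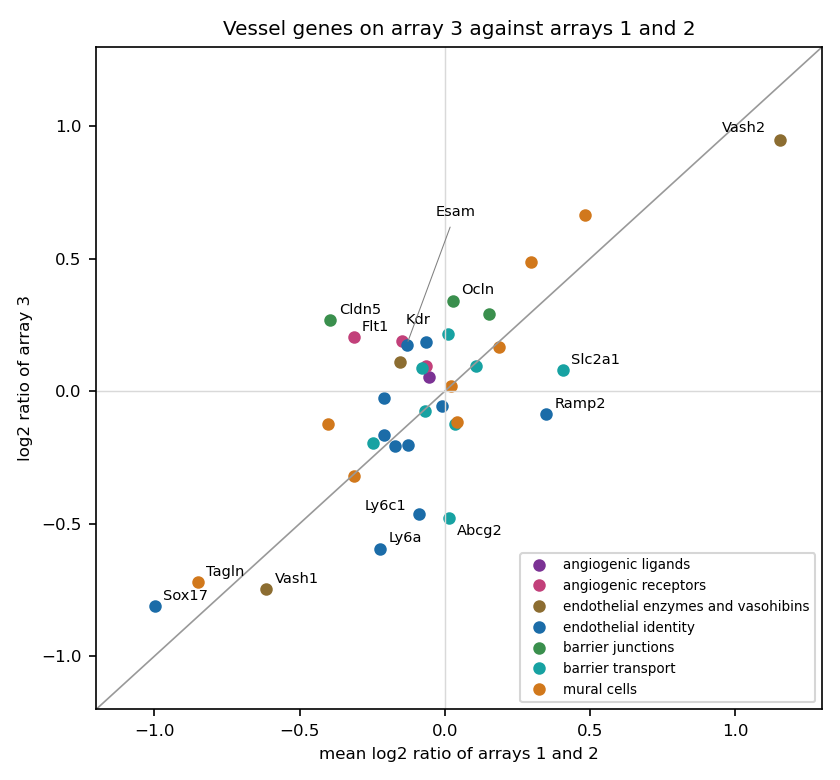
Log2 ratio of mutant over wild type on array 3 (y axis) against the mean of arrays 1 and 2 (x axis) for the 37 tested vessel genes, coloured by role; the line marks equal values. Vash1, Vash2, Sox17 and Tagln lie near the line, while Cldn5 and Flt1 lie above it and Ramp2 and Slc2a1 below it.

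The genes listed beside the members gave further values, 20 higher (27%) and 11 lower (14.9%) of 74 tested, or 41.9% either way, against 17.1%, 23.6% and 40.7% of all named genes. Among other VEGF and angiopoietin genes, 6 of 16 were higher (37.5%) and 2 lower (12.5%), including the sphingosine phosphate receptor S1pr1 (0.38 ± 0.04), the PDGF-BB ligand gene Pdgfb (0.31 ± 0.11), the adrenomedullin receptor Calcrl (0.25 ± 0.07) and the VEGF family member Vegfb (-0.40 ± 0.05). The other tested probes of Calcrl, Pdgfb and Vegfb had the opposite sign and did not pass, at -0.08, -0.08 and 0.19. In the vessel basal lamina, 2 of 8 were higher and 2 lower: the nidogen gene Nid1 (0.45 ± 0.10) and agrin, Agrn (0.37 ± 0.01), were higher, while the collagen gene Col4a2 (-0.79 ± 0.10) and the laminin gene Lamb2 (-0.15 ± 0.01) were lower. Among other mural genes, 2 of 10 were higher, the transcription factors Foxf2 (0.54 ± 0.09) and Foxc1 (0.39 ± 0.05), and 1 was lower, the tropomyosin gene Tpm1 (-0.24 ± 0.04). Notch and ephrin genes gave 2 higher and 0 lower of 8, the target gene Hey1 (0.39 ± 0.13) and the ligand Jag1 (0.24 ± 0.15). Wnt and norrin genes gave 1 higher, the norrin co-receptor subunit Tspan12 (0.42 ± 0.05), and 2 lower of 10, the ligand Wnt7a (-0.24 ± 0.09) and the receptor Fzd4 (-0.18 ± 0.04). All 3 tested genes of the vasohibin partner and tubulin tyrosination list passed: the vasohibin-binding protein Svbp (0.15 ± 0.04), the tubulin tyrosine ligase Ttl (0.20 ± 0.12) and the glutamate-removing carboxypeptidase Agtpbp1 (-0.31 ± 0.08). Of 19 other endothelial genes, 5 were higher and 3 lower, including the junction gene Jam2 (0.24 ± 0.02) and the monocarboxylate transporter Slc16a1 (0.31 ± 0.11), whose other probes were also higher (0.36 and 0.46). The junction-linked Cgnl1 counts as lower by its probe of smallest p (-0.20 ± 0.03), but its other tested probes passed as higher, at 0.45 (adjusted p = 0.0321) and 0.31 (adjusted p = 0.0472), so no direction can be given for it. Of these further genes, S1pr1, Vegfb, Nid1, Agrn, Col4a2, Foxf2, Foxc1 and Tspan12 kept their calls when any single array was left out. The others lost theirs without array 1 (adjusted p from 0.056 to 0.226), several of them also without array 2, and Svbp and Ttl also without array 3; Jag1 was at 0.16 without array 3.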

How the data were processed

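RNA from cortex was compared on 3 arrays of 2 colours. The authors deposited, per the readme, 1 table per array with linear intensity values already normalized and background-subtracted; how they were normalized, and on which build, is not given in these sources. They also deposited a score per spot, the signed fold of test over control, identical in the series' value table, and a log2 ratio with repeated spots collapsed. The readme calls a spot reliable when foreground exceeds 2 times background. The mutant as numerator rests on the sample titles, on the readme's test over control, and on the Pro25G control spots, whose median log2 ratio was 4.51, -4.54 and 4.58 on arrays 1 to 3, turning over with the dyes in the labels.

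Log2 ratios of the deposited channels were averaged over the spots of a probe, and each mean was compared with 0 by limma's lmFit and eBayes (limma 3.58.1, R 4.3.3), with Benjamini-Hochberg adjustment over 27530 probes reliable on at least 2 arrays, at a threshold of 0.05. Accessions were named through RefSeq (GRCm38.p6), used for names only apart from the upstream sequences. Precision is limited by having 3 arrays. Figures were drawn in Python 3.11.15 (pandas 2.3.3, matplotlib 3.10.9). The script was tested on simulated data. Alternatives covered normalization, filters, the dye, array weights, the treatment of a gene's probes and leaving out each array. Every member is named; values on every array are given for called members and for Kdr, Vegfa, Vash1 and Vash2, and up to 4 genes of smallest p are named per further list. A gene that this rule takes is not reported here, though counts include it. The members and lists were chosen with earlier results of these data known.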

Additional observations from a re-analysis of the deposited data

How the results depend on the processing

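With arrays 1 and 2 averaged as 1 sample, 5120 probes passed, with 3 vessel genes higher and 5 lower; with array weights, 18617 passed, with 9 higher and 16 lower. Leaving out 1 array at a time gave 2409 to 9885 probes, 3 to 6 vessel genes higher and 4 to 12 lower; without array 1, 3 were higher and 4 lower. Loess, median centring, subtraction of negative controls, the 3 filters on dim probes, a dye term, the authors' collapsed ratio and the mean of a gene's probes gave 4 to 6 higher and 7 to 9 lower. With negative controls subtracted, Vash2 moved from 1.09 to 1.61, Pltp from -0.23 to -0.46 and Eng from -0.19 to -0.39. Under the same setting Agtpbp1 moved from -0.31 to -0.63, Wnt7a from -0.24 to -0.41 and a Cgnl1 probe from -0.20 to -0.35. The mean of a gene's probes moved Sox17 from -0.94 to -0.26, Acta2 from -0.32 to -0.08 and Tjp1 from 0.20 to 0.06, and array weights moved Tjp1 to 0.11. Of 182 values of called members under alternatives, 159 kept the call, 23 lost it and 0 reversed. Vash1, Vash2, Sox17 on both probes, Tagln, Rgs5 and Pdgfrb kept theirs wherever a value was given. The Vegfa probe A_52_P638895 turned from 0.00 to -0.11 with array weights (adjusted p = 0.0368), near its -0.14 on array 1. Other member values with array weights also lay near array 1. Cldn5 was at -0.32 (array 1, -0.35), Ramp2 at 0.36 (0.40) and Slc2a1 at 0.28 (0.28). The counts with array weights may thus rest largely on array 1, which was not tested. Each array pairs both genotypes, and the test of the mean log2 ratio against 0 uses this pairing. No further pairing was possible because there is 1 group of ratios. Probes that were not reliable on 2 arrays have no test, which leaves out 5 of the 42 genes.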
